A study of Mus musculus with 2 samples.

Results

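The 39 protein-coding Hox genes of the mouse lie in 4 clusters, and few of their promoters carried a GATA4 peak in adult liver. They were the genes of GENCODE mouse release 21 whose symbol is Hox, a cluster letter from a to d and a number, 39 of the 21755 protein-coding genes off chromosome Y. GATA4 binding had been mapped by chromatin immunoprecipitation and sequencing (ChIP-seq) with a GATA4 antibody in whole liver of healthy adult mice. There was 1 group of 2 samples, replicates 1 and 2, which carry the same donor and tissue identifiers, and differences between them can therefore be technical ones. Strain, age and sex were not given in the sources used here, and no sample was treated. The files hold peaks and no reads, so the read depth is unknown and only the number of peaks shows how far each list reaches.

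Hox genes encode homeodomain transcription factors that give cells their position along the body axis. The genes of a cluster stand in the order in which they are used: paralogue group 1 and its neighbours, at the 3′ end, act in the hindbrain and neck, and groups 9 to 13, at the 5′ end, act in the rear trunk and limbs. In cells where they are off, Polycomb complexes mark their CpG-rich promoters with methylated histone H3, and MLL/trithorax complexes oppose this where they are on. GATA4 is a zinc-finger factor that reads WGATAR (W stands for A or T, R for A or G). In liver it is known from the sinusoidal endothelium, and also from stellate cells.

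The Hox promoters were close to other promoters in GC content, and most but not all were rich in CpG. Within 500 bp of the start sites their GC content ranged from 46.6% to 75.5% with a median of 56.8%, against a median of 55.05% over all genes. The ratio of observed to expected CpG had a median of 0.65 at Hox genes and 0.54 over all genes. It was above 0.6 at 25 of the 39 Hox genes, or 64.1%, against 44.3% of all genes, and lowest at Hoxb3 with 0.33. The name of CpG-rich controls therefore held for 25 genes. Whether the genes were silent could not be checked, since nothing here measures RNA or histone marks. Beside the liver label, 10 genes of hepatocytes and sinusoidal endothelium were looked up, and 6 had a promoter summit in the optimal list described below. That was 60%, against 14.6% of genes of like promoter GC and 22.6% of all genes. Ubiquitous genes had a higher share, 70.8%, so a promoter summit does not by itself mark a liver gene. The summits of Oit3, an endothelial gene, and Ttr, which encodes transthyretin, were in the lists of both replicates.

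A promoter was counted as carrying GATA4 where a peak summit lay within 1 kb of any start site of the gene. The optimal list is the authors' thresholded set of 24050 peaks on the assembled chromosomes. A peak in it need not be in both replicates, and that of Hoxb5 was in no list of replicate 1. In the optimal list 4 of 39 Hox genes had such a summit, or 10.3% (95% Wilson interval 4.06% to 23.6%). The background was 22.6% of all genes. Among genes of like promoter GC, taken in bins of 5 points and weighted to the Hox genes, it was 27.0%, which would be 10.5 of 39 genes. This value lay above the Hox interval. The interval covers counting error only, and Hox genes are neighbours that share sequence, so they are not independent and no test of this difference was made.

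Other lists were set beside it (the plot of promoter summits by list). The deposit holds the output of 2 processing runs on different alignments of the reads, here called A, which made the optimal list and the relaxed lists, and B, which made each replicate's own thresholded list. Replicate 2's own list of 26314 peaks had a summit at 5 Hox genes, or 12.8%, against 33.4% of genes of like GC and a background of 27.9%. Replicate 1's list of 4287 peaks had 0 of 39, with a Wilson interval up to 8.97%, against 1.63% of genes of like GC and a background of 1.53%. At that length no shortfall was detectable in replicate 1. Run B's pooled list had 2 Hox genes, or 5.13%, against 26.3% of genes of like GC (background 22.1%). The conservative lists, which are shorter sets, 1 from each run, had 0 Hox genes each. Genes of like GC had a summit in 5.0% of cases in run A's (background 4.36%) and in 5.50% in run B's (background 4.82%).

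**Figure D1:**
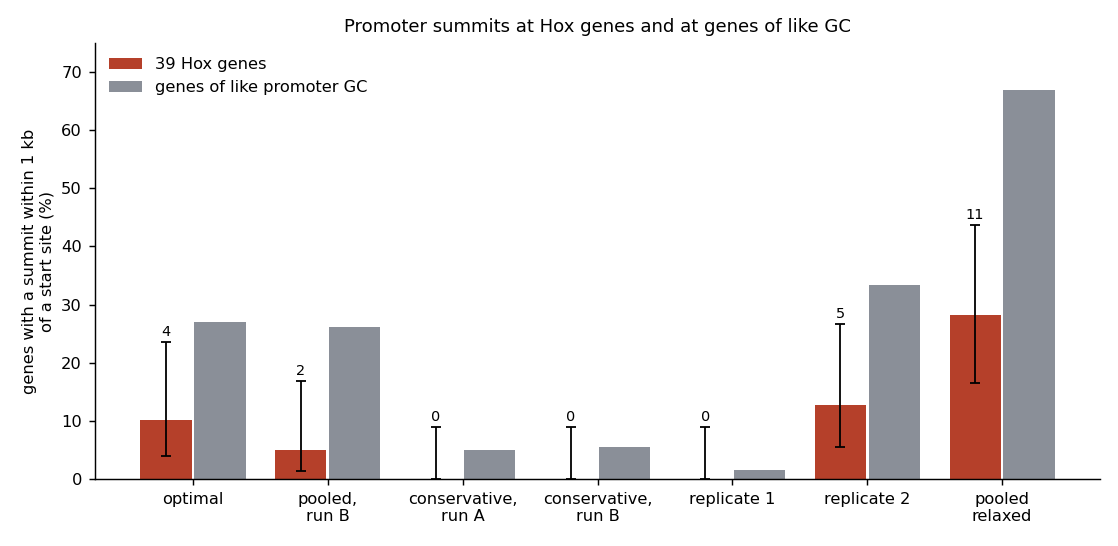
Bars give the percentage of genes with a GATA4 summit within 1 kb of a start site in 7 peak lists, for the 39 Hox genes (red, with 95% Wilson intervals and the number of genes above) and for other genes of like promoter GC (grey). In the optimal list the share is 10.3% for Hox genes against 27.0% for genes of like GC, and in the pooled relaxed list 28.2% for Hox genes against 67.0%.

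With CpG matched as well, the Hox share was still the lower one. Of the 25 Hox genes with a CpG ratio above 0.6, 4 had a summit in the optimal list, or 16.0% (95% Wilson interval 6.40% to 34.7%), against 35.9% of other genes matched on both GC and CpG ratio. Of the 14 Hox genes at or below 0.6 none had one, against 22.6% of matched genes. Over all genes, with no match on GC, the shares were 36.2% above a ratio of 0.6 and 11.8% at or below it, so the 0 of 14 was not detectably lower than that of all genes low in CpG. Both matched shares lie just above the upper bounds of the Hox intervals, which are 34.7% for the first and 21.5% for the count of 0 among 14 genes.

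The 4 genes were Hoxa2, Hoxa7, Hoxb5 and Hoxd8, each with a CpG ratio above 0.6. Hoxa2, which patterns the hindbrain and the second pharyngeal arch, had a peak at chr6:52164915-52165274, with its summit 264 bp upstream of the start site. It had a signal score of 27.7 in the optimal list and ranked 17042, where rank 1 is the strongest. It was missing from both replicates' thresholded lists, but was in their ranked lists, which hold run B's peaks before the threshold, with a signal score of 7.77 (rank 22359) in replicate 1 and 19.6 (rank 21598) in replicate 2. The signal score is the peak caller's own, has no stated unit and ranks peaks within 1 list only. The summit with 50 bases to each side, at chr6:52165045-52165145, is shown because it carries the Hox promoter peak of best rank. It holds no WGATAR, and like all windows below it is printed 5′ to 3′ on the plus strand of mm10 (GRCm38.p6).
Hoxa2 promoter: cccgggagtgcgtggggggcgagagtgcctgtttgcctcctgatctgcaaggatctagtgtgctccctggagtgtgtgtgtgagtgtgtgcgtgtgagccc

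Hoxb5, a trunk-patterning gene also used to mark blood stem cells in the mouse, had a peak at chr11:96303027-96303386, 305 bp upstream of its start site by the summit. Its signal score was 22.1 in the optimal list (rank 21227) and 24.3 in replicate 2's list (rank 15339), and it was in no list of replicate 1. This window, at chr11:96303157-96303257, holds 11 CpG and no WGATAR, and is shown beside that of Hoxa2 as the other promoter peak outside annotated UTRs.
Hoxb5 promoter: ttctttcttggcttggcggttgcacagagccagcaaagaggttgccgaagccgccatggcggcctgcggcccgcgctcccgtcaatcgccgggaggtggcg

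Hoxa7 and Hoxd8, which act in the trunk, had the other 2 promoter peaks. That of Hoxa7 lay at chr6:52217882-52218241, with the summit 557 bp upstream of a start site, a signal score of 23.8 in the optimal list (rank 20022) and 19.2 in replicate 2's list (rank 20314). A second line of the optimal list with a summit at 52218261 overlaps it, with a signal score of 8.10. The Hoxd8 peak lay at chr2:74704689-74705048, 36 bp upstream of a start site, with 20.2 in the optimal list (rank 22222) and 18.4 in replicate 2's list (rank 21091). Both had WGATAR within 50 bp of the summit, 2 copies at Hoxa7 and 1 at Hoxd8, each with AGATAA among them. Both lay outside replicate 1's thresholded and ranked lists. Of the pair, replicate 1's relaxed list, run A's input with background included, held the Hoxa7 peak, at rank 218354 of 299786.

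Of the 5 promoters in replicate 2's list, 3 were also in the optimal list. Hoxa10, which patterns the rear trunk and the uterus, was not in the optimal list, and had a summit 308 bp downstream of a start site (signal score 15.2, rank 23796) in replicate 2's. The 3 in both were Hoxa7, Hoxb5 and Hoxd8. In replicate 2's list of 26314 the median rank of summits at other promoters was 15379.5. Hoxb5 ranked close to it, at 15339, and Hoxa10 well below it, at 23796.

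Peaks of the optimal list in the clusters lay both at and away from the promoters, and none lay at the promoters of paralogue groups 9 to 13 (the maps of the clusters). The clusters were taken from the first to the last base of their Hox genes and cover 492 kb in all. The optimal list had 12 summits there, of which 5, or 41.7%, were at Hox promoters and 7 were not, against 21.6% of all summits of the list at promoters. These shares are not like for like, since promoters fill more of the clusters. They held 7.93 Hox genes per 100 kb, against 0.822 protein-coding genes over the chromosomes. With the overlapping Hoxa7 lines counted once there were 11 sites, 4 of them at promoters. HoxA, on chromosome 6 at 52155590 to 52260880, had 6. HoxB, on chromosome 11 at 96194316 to 96368256, had 5. HoxD, on chromosome 2 at 74668310 to 74765142, had 1. HoxC, on chromosome 15 at 102921103 to 103036852, had 0, and so did replicate 1's and replicate 2's own lists there.

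**Figure D2:**
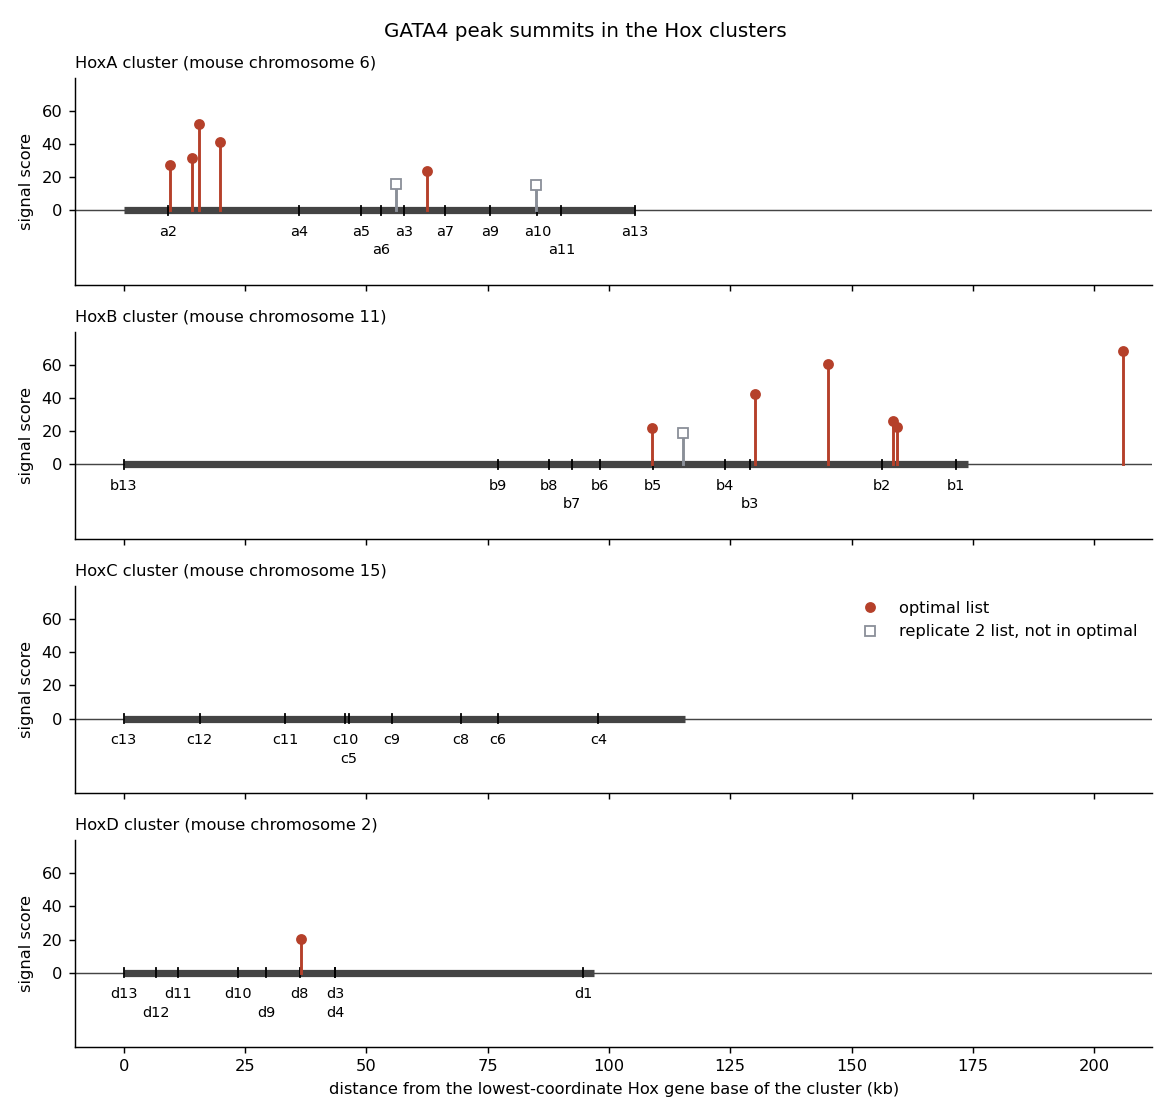
GATA4 summits along the 4 Hox clusters, with distance in kb from the lowest-coordinate base of the cluster's Hox genes on the horizontal axis and the signal score on the vertical axis. Red circles are sites of the optimal list and open squares sites of replicate 2's thresholded list that the optimal list lacks, each with the score of its own list, which are not on one scale, and where 2 lines overlap the stronger is drawn; black ticks are the upstream annotated ends of 38 of the 39 Hox genes, without summits nearest to the other. The summits of highest score lie between Hoxa2 and Hoxa4 and from Hoxb3 onwards, and HoxC has none.

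The strongest site within a cluster lay in an intron of Hoxb3, at chr11:96339250-96339609. It had a signal score of 60.7 in the optimal list (rank 4854), 20.2 in replicate 1's list (rank 2361) and 41.2 in replicate 2's list (rank 6407). This was the 1 site of the clusters that passed the threshold in both replicates. It was also in both conservative lists. The window around its summit, chr11:96339380-96339480, is shown because both replicates held it. It has no WGATAR and 2 copies of MGGAAR, the motif core of ETS factors (M stands for A or C), in capitals as TTTCCG on the plus strand.
Hoxb3 intron: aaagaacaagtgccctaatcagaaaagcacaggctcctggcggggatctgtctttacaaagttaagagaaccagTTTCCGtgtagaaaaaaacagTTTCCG

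A second site in the first part of Hoxb3, at chr11:96324201-96324560, had its summit 1055 bp downstream of a start site, just past the limit of 1 kb. Its signal score was 42.9 in the optimal list (rank 8984) and 28.8 in replicate 2's list (rank 11986). In replicate 1 it was in the ranked list (13.5, rank 5713) and not in the thresholded one. Both conservative lists held it, with 42.9 (rank 7015) in run A's and 42.8 (rank 7221) in run B's. The window at chr11:96324331-96324431 has 2 copies of AGGTCA, the hormone receptor hexamer, in capitals as TGACCT, and no WGATAR.
Hoxb3 5′ part: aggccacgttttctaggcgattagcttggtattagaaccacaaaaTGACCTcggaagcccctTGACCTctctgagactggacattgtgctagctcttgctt

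Hoxa3, a gene of the third pharyngeal arch and the thymus, held 3 sites of the optimal list, with summits 4863, 6210 and 10689 bp upstream of the start site of its neighbour Hoxa2. They also lie within Gm28308, a read-through gene annotated over this part of HoxA. The strongest, in an intron at chr6:52170861-52171220, had a signal score of 52.5 in the optimal list (rank 6323) and 50.8 in replicate 2's list (rank 4202). No list of replicate 1 held it. The window at chr6:52170991-52171091 holds 1 WGATAR, in capitals as CTATCT, 45.5 bp from the summit, and 3 copies of MGGAAR.
Hoxa3 intron: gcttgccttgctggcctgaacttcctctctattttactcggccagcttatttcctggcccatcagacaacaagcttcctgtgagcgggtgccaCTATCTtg

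The other 2 sites of Hoxa3 were in another intron at chr6:52175340-52175699 and in the last exon at chr6:52169514-52169873. The intronic one had a signal score of 41.4 in the optimal list (rank 9611) and 36.1 in replicate 2's list (rank 8198), and was in no list of replicate 1. The exonic one had 31.9 in the optimal list (rank 14192) and 22.5 in replicate 2's list (rank 17062), and was in replicate 1's ranked list with 9.34 (rank 13658). It also passed into run B's conservative list. Of the 2, only the exonic site had WGATAR near its summit.

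Hoxb2, a hindbrain gene, held 2 weaker sites, with summits 1190 and 1954 bp downstream of its start site. Their signal scores in the optimal list were 26.3 (rank 18164) and 22.9 (rank 20655), and both were missing from the thresholded lists of the replicates. Neither window had WGATAR. In the ranked lists the first had 26.0 (rank 14327) in replicate 2 and no line in replicate 1. The second had 5.68 (rank 40098) in replicate 1 and 16.7 (rank 26676) in replicate 2. Replicate 2's list held 2 more sites away from promoters that the optimal list lacks. One lay 6114 bp downstream of the start site of Hoxb5 (19.3, rank 20228) and was also in run B's pooled list, and the other 1322 bp downstream of that of Hoxa3 (16.2, rank 23205).

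Within 50 kb of a cluster, the strongest peak lay outside it, at chr11:96399992-96400351, 34420 bp past the start site of Hoxb1 on the 3′ side. It had a signal score of 68.5 in the optimal list (rank 3737) and 64.5 in replicate 2's list (rank 2357). In replicate 1 it appeared only in the relaxed list, with 6.86 (rank 68679). Its window at chr11:96400122-96400222 is shown for its WGATAR, in capitals, 21.5 bp from the summit, beside which stands 1 CAGCTG, an E-box.
Hoxb1 3′ flank: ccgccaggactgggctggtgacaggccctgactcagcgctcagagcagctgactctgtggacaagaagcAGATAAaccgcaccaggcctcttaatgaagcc

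Counted over the length of the clusters, the number of summits was near that around other genes of like GC. The optimal list had 2.44 summits per 100 kb in the clusters, against 0.908 over the assembled chromosomes. Windows of 100 kb around other genes of like promoter GC held a mean of 2.17. With the overlapping Hoxa7 lines counted once the clusters had 2.24. Windows of 100 kb around the Hox genes themselves held a mean of 2.21, and 1.74 in run B's pooled list. With 50 kb added on each side the clusters had 1.46 per 100 kb, and 1.23 in run B's pooled list. In the other thresholded lists the clusters alone lay below the like-GC windows. The values were 2.03 against 2.13 in run B's pooled list, 2.44 against 2.53 in replicate 2's and 0.203 against 0.289 in replicate 1's. In the conservative lists it was 0.407 against 0.685 in run A's and 0.610 against 0.740 in run B's, from 2 and 3 summits. None of these differences was tested.

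Away from promoters the clusters had 1.42 summits per 100 kb in the optimal list, against 0.712 over the chromosomes and 1.30 in the windows. At Hox promoters they had 1.02, or 0.813 with the Hoxa7 lines counted once, against 0.861 at promoters in the windows. Run B's pooled list had 0.407 at Hox promoters, against 0.842 in the windows, and replicate 2's had 1.02, against 1.12. The clusters held 7.93 Hox genes per 100 kb, against 0.822 protein-coding genes over the chromosomes. Genes in the windows were not counted, so these densities at promoters do not show the share of promoters with a summit.

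By place in the cluster, in a grouping chosen after the values were seen, paralogue groups 1 to 4 had a promoter summit at 1 of 12 genes, groups 5 to 8 at 3 of 11 and groups 9 to 13 at 0 of 16 in the optimal list. Genes of like GC would have had 24.1%, 25.9% and 29.9%. Replicate 2's list gave 1, 3 and 1, the last being Hoxa10. Groups 9 to 13 had the highest median GC content, 58.6%, and the fewest WGATAR, with a median of 0.50 per kb, against 0.75 per kb in groups 1 to 4 and 1.06 per kb in groups 5 to 8. No test of these groups was made.

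Lines of the lists without a threshold were also scarcer at Hox genes than at genes of like GC (the plot of percentiles by gene). Only in the lists of the pooled reads and of replicate 2 did the like-GC share lie above the Hox interval. The pooled relaxed list holds 216237 lines on the assembled chromosomes, background included, and 11 of 39 Hox genes had a line within 1 kb, or 28.2%, against 67.0% of genes of like GC and a background of 58.3%. The other 28 Hox genes had none. Replicate 1's relaxed list had a line at 6 Hox genes, or 15.4%, against 26.4% of genes of like GC (background 28%). Replicate 2's had one at 20, or 51.3%, against 76.9% (background 66.6%). In run B's ranked lists replicate 1 had 1 Hox gene, or 2.56%, against 8.24% of genes of like GC (background 8.28%). Replicate 2 had 10, or 25.6%, against 62.5% (background 51.8%), and the pooled reads had 9, or 23.1%, against 54.4% (background 45.7%). The list ranked between the replicates had 4, or 10.3%, against 20.6% (background 18.2%).

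For each Hox gene the strongest line was placed among genes in the same GC bin, with genes that had no line sharing the middle of the last places. The median percentile over the 39 Hox genes was 21.2. Since 28 of the 39 had no line, this is a place shared by genes without a line and is no rank of a signal. The 11 Hox genes with a line had a median of 60.3 among all genes of their bins. Among genes with a line only, that median was 36.2. Of the 39 Hox genes, 6 stood above 50. They were Hoxa2 at 82.9, Hoxa5 at 74.8, Hoxa7 at 70.9, Hoxb5 at 67.7, Hoxb2 at 63.2 and Hoxd8 at 60.3. Hoxa5, known for its part in lung development, had its line 37 bp upstream of the start site (signal score 21.2, rank 26376) and was in none of the thresholded lists. Hoxb6, Hoxa3, Hoxb7 and Hoxa10 stood between 49.7 and 37.1. These 4 were the lowest ranked of the 11, at 73693 for Hoxb7, 89629 for Hoxa10, 105847 for Hoxb6 and 147316 for Hoxa3. The 28 genes without a line, which include every gene of HoxC, stood between 9.86 and 30.9 by their GC bin.

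**Figure D3:**
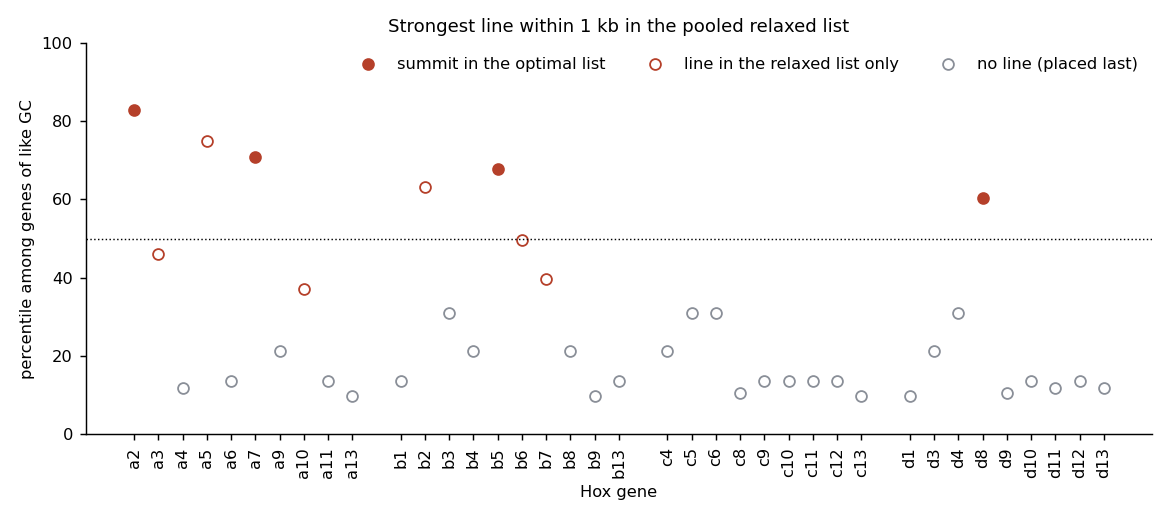
Percentile of each Hox gene's strongest line within 1 kb in the pooled relaxed list among other genes in the same bin of promoter GC, in cluster order, for 38 of the 39 genes. Filled red points had a summit in the optimal list, open red points only a relaxed line and grey points no line; 6 genes lie above the dotted line at 50, led by Hoxa2 at 82.9.

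Of the 6 Hox genes with a line in replicate 1's relaxed list, 5 also had one in replicate 2's, and Hoxa13 did not. In replicate 1's relaxed list the 6 genes with a line were Hoxa2 (signal score 8.21, rank 33354), Hoxd3 (5.86, rank 120970), Hoxa13 (6.13, rank 103550), Hoxb6 (5.33, rank 163987), Hoxa7 (4.83, rank 218354) and Hoxa9 (4.73, rank 231699). Hoxa2 and Hoxa7 stood above 50 in both, Hoxa2 with percentiles of 93.0 in replicate 1 and 72.9 in replicate 2, and Hoxa7 with 77.1 in replicate 1 and 59.9 in replicate 2. In replicate 1 only 26.4% of genes of like GC had a line, so all 6 Hox genes with a line stood above 50. A place above 50 there shows no more than that a line was present. Hoxa5, at 74.1 in replicate 2, and Hoxb5, at 73.4, had no line in replicate 1.

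Cluster summits at Hox promoters ranked low among promoter summits, a comparison with no test. In the optimal list the 12 summits, 7 of them away from promoters, had a median signal score of 27.0 and a median rank of 17603 of 24050. The 5192 summits at other promoters had a median score of 31.5 and a median rank of 14455. Over all other summits, at promoters or not, the median rank was 12023.5. The 7 cluster summits away from promoters ranked 4854, 6323, 8984, 9611, 14192, 18164 and 20655. Among promoter summits of like GC the median percentile of the cluster summits was 31.1, and 4 of 12 stood above 50. None of those 4 was at a Hox promoter, and the 5 summits at Hox promoters had a median percentile of 19.0, or 21.3 over 4 with the Hoxa7 lines counted once. In replicate 2's list the 12 summits had a median percentile of 33.0, again with 4 above 50, and the 5 at Hox promoters one of 29.6. In run B's pooled list the 10 summits had a median percentile of 39.9 and the 2 at Hox promoters one of 25.7.

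WGATAR lay within 50 bp of 5 of the 12 cluster summits, or 41.7% (95% Wilson interval 19.3% to 68.0%). It lay at 31.5% of summits at other promoters of like GC and at 52.8% of all other summits, both inside this interval. The count was 3 of 5 at Hox promoters, where 2 of the 3 belong to the overlapping lines at Hoxa7, and 2 of 7 elsewhere. Of the stricter AGATAA there were 2 of 12, against 15.8% of promoter summits of like GC. In replicate 2's list 5 of 12 had WGATAR, and the 1 summit of replicate 1's list did not. In run B's pooled list it was 0 of 10, with an interval up to 27.8%, against 34.4% of promoter summits of like GC and 53.5% of all other summits. That list lacks the Hoxa7 and Hoxd8 peaks, and its summits at the 2 Hoxa3 sites with WGATAR lay 50.5 bp from the motif, just outside the window. Within 100 bp it was 3 of 10, against 43.6% of promoter summits of like GC. The share at cluster summits thus differed between the lists.

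Other motifs were searched on both strands in the same windows. MGGAAR was at 7 of 12 cluster summits, or 58.3%, against 43.9% of promoter summits of like GC and 46.0% of all other summits. GGGCGG, the SP motif, was at 0 of 12, against 24.2% and 9.34%, and within 100 bp it was at 4 of 12, against 38.5% and 15.4%. CCAAT, of NF-Y, was at 0 of 12, against 15.1% and 12.8%. AGGTCA was at 1 of 12, against 6.66% and 11.8%, and TRTTKRY, of FOX factors, where K is G or T and Y is C or T, at 2 of 12, against 12.7% and 21.7%. CAGCTG, the CTCF core motif and the control WTATGC were at 0 of 12. Their shares at promoter summits of like GC were 5.75%, 1.34% and 3.03%, and at all other summits 7.68%, 1.10% and 3.89%. The interval of a count of 0 among 12 reaches 24.2%, so none of these counts of 0 is a detectable lack.

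The letters of the GATA motif were present at most Hox promoters. Within 1 kb of the start sites 34 of 39 Hox genes, or 87.2%, held WGATAR, against 90.4% of genes of like GC and 92.9% of all genes. Their density was 0.91 ± 0.74 per kb (SD over 39 genes), against a mean of 1.31 per kb at genes of like GC. AGATAA was at 41.0% of Hox promoters and 57.6% of those of like GC. The control WTATGC had 0.31 per kb at Hox genes and 0.43 per kb at genes of like GC. Within 500 bp the control was the other way, with 0.37 per kb at Hox genes and 0.32 per kb at genes of like GC, and WGATAR had 0.82 per kb at Hox genes and 0.98 per kb at genes of like GC. Hoxa11, Hoxc6, Hoxc13, Hoxd9 and Hoxd11 held no WGATAR and none had a promoter peak in a thresholded list. Most of the 34 genes with WGATAR had no such peak either.

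Other gene lists were set beside the Hox genes at like GC (the plot of promoter summits by gene list). They were chosen by function, and each count is a description. Of 73 other developmental regulators, mostly homeobox and T-box genes of other tissues, 1 had a promoter summit in the optimal list, or 1.37% (95% Wilson interval 0.242% to 7.36%), against 29.4% of genes of like GC. The 1 was Nkx6-2, a neural and glial regulator (rank 19638). Replicate 2's list had 2 of 73, or 2.74%. Of 24 ubiquitous genes 17 had one, or 70.8% (50.8% to 85.1%), against 30.2% of genes of like GC, led by Psmb2, a proteasome subunit gene, at rank 2706. The Hox share of 10.3% thus lay between the share of other developmental regulators and that of genes of like GC.

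Genes that encode the partners and regulators of Hox genes were counted in the same way. Of 9 TALE cofactor genes, whose homeodomain products bind DNA with HOX proteins, 1 had a promoter summit, Meis2 (rank 18460), or 11.1%, against 27.5% of genes of like GC. Of 30 Polycomb genes 7 had one, or 23.3%, against 30.5% of genes of like GC, with Pcgf1 (rank 308), Mtf2 (rank 2146), Rbbp4 (rank 6148), Cbx2 (rank 7491) and Ezh2 (rank 16278) in the lead. Of 14 MLL/trithorax genes 5 had one, or 35.7%, against 28.9%. They were Kmt2a (rank 5163), Dpy30 (rank 7272), Setd1a (rank 8090), Wdr5 (rank 16520) and Psip1 (rank 20017). Replicate 1's list held no promoter of these genes. With the list of replicate 2 the TALE genes had 3, or 33.3%, against 35.0% of genes of like GC. The Polycomb genes had 14, or 46.7%, against 38.8%, and the MLL/trithorax genes 5, or 35.7%, against 36.8%. Over all genes the shares were 22.6% in the optimal list and 27.9% in replicate 2's. The Wilson intervals in the optimal list were 1.99% to 43.5% for the TALE genes and 11.8% to 40.9% for the Polycomb genes. For the MLL/trithorax genes the interval was 16.3% to 61.2%. Each interval held the like-GC share, so no difference from genes of like GC was detectable in the optimal list. The differences in replicate 2's list were not tested.

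**Figure D4:**
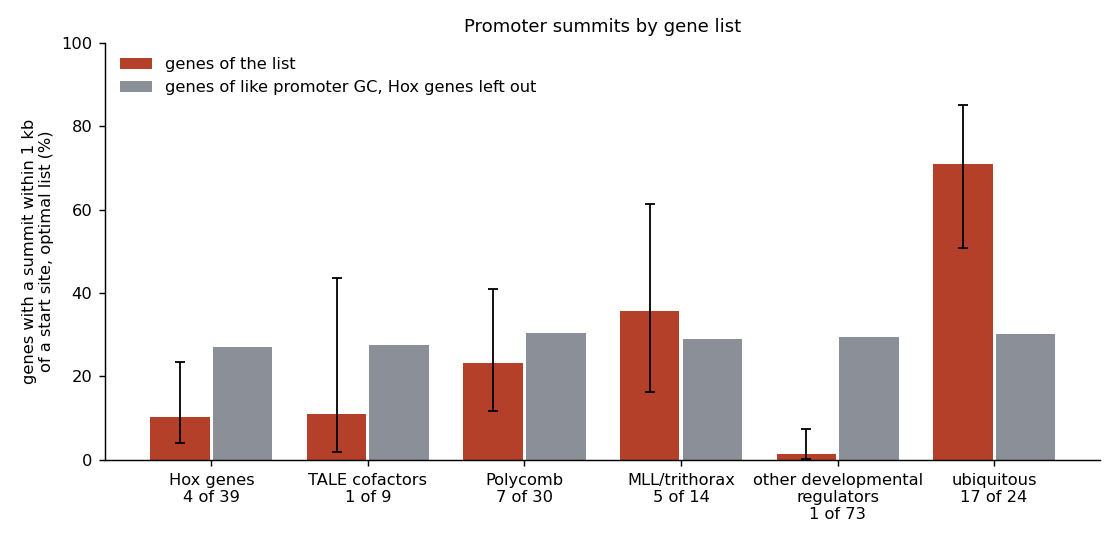
Bars give the percentage of genes with a GATA4 summit within 1 kb of a start site in the optimal list, for each gene list (red, with 95% Wilson intervals and counts under the axis) and for genes of like promoter GC (grey, Hox genes left out). The Hox genes, at 10.3%, and other developmental regulators, at 1.37%, lie below their grey bars, and ubiquitous genes, at 70.8%, above theirs.

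Among 12 genes in or beside the clusters, 3 had a promoter summit in the optimal list, against 22.9% of genes of like GC. They were Cbx5, a heterochromatin protein gene beside HoxC (rank 9288), Snx10, a sorting nexin gene beyond HoxA (rank 11782), and Mtx2, a mitochondrial import gene beside HoxD (rank 15732). Replicate 2's list had 6 of the 12, against 27.7% of genes of like GC, and replicate 1's had 0. Evx1 and Evx2, the homeobox genes at the 5′ ends of HoxA and HoxD, which also belong to the developmental list, were not among the 3.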

How the data were processed

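GATA4 peaks of 2 liver samples were deposited with a signal score and a score for the irreproducible discovery rate (IDR), on mm10 per the labels. The lists come from 2 runs (A and B), told apart by their source alignments, per the README files deposited with the samples, which do not date them. The −log10 q column deposited by the authors was not used. Neither the aligner nor the peak caller is named in the files or labels, and depth is unknown. Thresholded lists hold peaks with an IDR of about 0.05 or less by their scores. The 2 lists on mm9 were not used.

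Start sites came from GENCODE mouse release 21 basic transcripts, sequence from GRCm38.p6 (mm10). GC content was the mean over a gene's start sites, and bins with fewer than 20 other genes were left out. A gene list's share was compared with no chance test. Code (Python 3.11.15, numpy 2.4.6) was tested on simulated data. Named were Hox genes and sites of any thresholded list, the 5 Hox promoters of best and of worst relaxed rank, and at most 5 genes per other list. Members and lists were chosen with earlier results of these data known. RefSeq's promoter table held 22 of the 39 Hox genes and was not needed. The values of 1 Hox gene are not reported here; it is included in all counts.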

Additional observations from a re-analysis of the deposited data

How the results depend on the processing

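The Hox share lay below that of genes of like GC in the 7 other settings of list, distance or start sites in which a Hox gene had a summit. In 5 more the Hox count was 0, which can only lie below, and the like-GC share was within the interval of 0 of 39 (up to 8.97%) in each of them but the IDR of 0.01. The numbers of Hox genes with a summit (4), like-GC share (27.0%) and cluster summits (12) changed with the list. The conservative lists gave 0 Hox genes, 5.0% and 2 summits (run A) and 0, 5.50% and 3 (run B), run B's pooled list 2, 26.3% and 10, and an IDR of 0.01 gave 0, 17.0% and 6. With 1 replicate left out they ran from 0 to 5 genes, from 1.63% to 33.4% and from 1 to 12 summits, the low ends being replicate 1's list alone. The strongest 4287 peaks of replicate 2, a setting chosen after seeing the data, gave 0, 4.25% and 1.

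The like-GC share was 23.7% within 500 bp, 31.2% within 2.5 kb (with 6 Hox genes), 25.1% with the most upstream start site, 27.8% with any base of the peak (with 5 Hox genes), 29.4% with the full annotation (chosen after seeing the data), 28.3% with GC over 1 kb and 31.1% with CpG matched too. AGATAA was at 16.7% of cluster summits, and WGATAR was at 0 of 10 in run B's pooled list (chosen after seeing the data) and ran from 0 (1 summit) to 41.7% with 1 replicate left out. The median percentile in the relaxed lists was 18.2 in replicate 2 and 36.7 in replicate 1. In replicate 1's relaxed list only 6 of 39 Hox genes and 26.4% of genes of like GC had a line. The median percentile was 45.8 in replicate 1's ranked list, where 38 of 39 Hox genes have no line. Both values of replicate 1 are thus places shared by genes without a line, and do not show that Hox promoters rank higher there. In the pooled relaxed list the median was 36.2 with promoters without a line left out. The cause of these differences was not tested, beyond the lengths of the lists. No paired analysis was possible because there is 1 group. Depth is unknown, and replicate 1's list is too short to show a shortfall.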
